A study of Mus musculus with 8 samples.

Results

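Schwann cells are the glia that wrap or ensheathe peripheral axons, including the sympathetic fibres that run along the outer layer of an artery. Their identity rests on the transcription factor SOX10, which with its partners turns on myelin genes in cells that myelinate and supports the non-myelinating Schwann cells that accompany thin autonomic axons. The cell bodies of autonomic neurons lie in ganglia outside the vessel wall, so an aortic preparation holds Schwann cell nuclei and little neuronal transcription. In this report 7 genes commonly used as markers of Schwann cells and perivascular nerves were described in RNA flushed from the mouse aortic lumen. They were S100b, Mbp, Sox10, Cdh19, Prx, Gfap and Ncam1, chosen by symbol. A probe set with 1 of these symbols, and no other, was found for 6 of the 7, out of 30063 genes with such a probe set. Prx, which encodes the myelin protein periaxin, had none and was not analysed here.

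The samples were thoracic aortic endothelium of 8 female mice, all carrying the tamoxifen-inducible recombinase Cdh5-CreERT2, which acts in endothelial cells, and homozygous floxed Mef2c. From 10 weeks of age, 4 of them received 5 daily tamoxifen injections (EKO), and 4 littermates received the vehicle alone, sunflower seed oil with 10% ethanol (control). Aortas were taken at day 14 after the first injection, TRIzol was flushed through the lumen, and 5 ng of RNA from each single aorta was hybridised to its own Affymetrix Mouse Transcriptome Array. The drug and the deletion differ together between the groups, since no control mouse received tamoxifen. The Cre acts in endothelium, so any difference in another cell type would not be a direct readout of its own Mef2c.

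Values are log2 expression per transcript cluster. Of 9 endothelial markers with a probe set, 7 had means above 7.45, the highest median of the negative control probe sets, and Pecam1 read 18.07 to 18.23 over the 8 arrays. The other two, Kdr at 6.42 to 7.22 and Robo4 at 5.93 to 6.54, read below those medians on each array, so a reading below them does not show that a transcript is absent. Mef2c averaged 9.77 in control and 9.75 in EKO arrays (difference -0.03, SE 0.11, limma adjusted p = 0.946), and its single probe set cannot check a deletion of unstated exons. Array medians over all probe sets lay between 6.06 and 6.24. Levels were set against 5222 control probe sets marked neg, with medians per array of 7.34 to 7.45 and lower quartiles of 5.85 to 5.94. The 23 background probe sets marked BkGr had medians of 3.63 to 3.75. Each array's neg median lay above its median over all probe sets, so most probe sets read below it. The neg medians are therefore a reference level and not a floor of background. EKO array 2 had both the highest median of all probe sets (6.24) and the lowest median of the control probe sets marked pos (10.62, against 10.74 to 10.94 on the others). With 4 arrays in a group, the precision of all values is limited by that number.

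The markers that define a Schwann cell did not stand above the medians of the neg control probe sets. Sox10, Cdh19, Gfap and Mbp read below that median on each of the 8 arrays. They read above the BkGr medians of 3.63 to 3.75, with Cdh19 lowest at 4.26. Their means over the arrays lay below 6.14, the median of all probe sets, which served as the level filter. Only S100b and Ncam1 passed that filter. Both genes are also active outside nerve, S100b in adipocytes and Ncam1 in muscle among other tissues. These levels therefore gave no clear Schwann cell signature, without showing that the cells were absent, and the genes are treated below as 2 above the level filter and 4 below it. In a bulk sample fewer cells of a type and less RNA per cell cannot be told apart. Probe sets differ in how strongly they bind their target, so levels are set against the control probe sets and not ranked between genes.

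**Figure D1:**
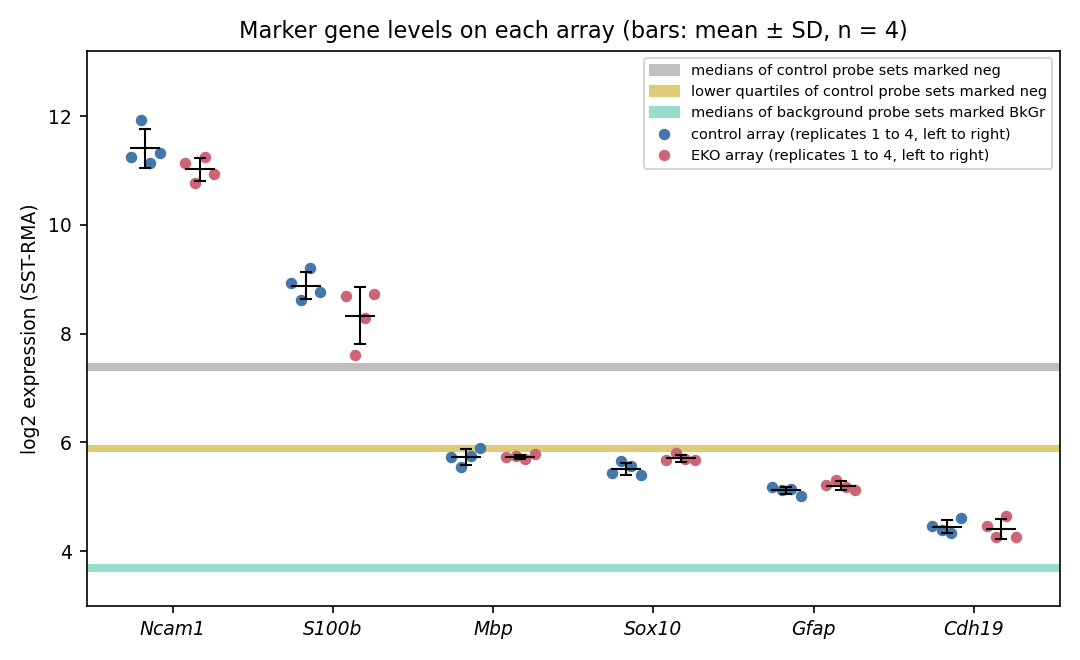
Log2 expression of the 6 marker genes on each array, with 4 control (blue) and 4 EKO (red) arrays, the mean and SD in black, and bands for the range over arrays of the control probe sets. Ncam1 and S100b lie above the medians of the neg control probe sets on each array, while Mbp, Sox10, Gfap and Cdh19 lie below them.

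Sox10 encodes the lineage factor itself. It read 5.43, 5.65, 5.56 and 5.41 on control arrays 1 to 4 and 5.67, 5.80, 5.69 and 5.68 on EKO arrays 1 to 4. The highest control array and the lowest EKO array lay next to each other without overlap, and the whole range of 0.39 stayed below the lower quartile of the neg control probe sets. The mean was 5.51 ± 0.11 in control and 5.71 ± 0.06 in EKO arrays (SD, n = 4 each). Their difference was 0.20 (SE 0.08) with a 95% confidence interval of 0.03 to 0.37, and did not pass after adjustment over all 30063 genes (limma adjusted p = 0.546). The two-sided exact permutation p was 0.0286, the smallest that 70 assignments of the arrays can give. Groups failed to overlap in 5.91% of all genes, and 6.20% of the 3773 genes whose mean lay within 0.25 of that of Sox10.

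Most genes at that low level read higher in EKO arrays. Of the 3773 genes near the level of Sox10, 78.1% had a positive difference, with a median of 0.09, and their medians per array were 5.58, 5.58, 5.54 and 5.51 in control and 5.56, 5.72, 5.66 and 5.60 in EKO arrays. EKO array 2 was highest both for Sox10 and for these genes. After quantile normalization of the deposited values the Sox10 difference was 0.13 (limma adjusted p = 0.693), and the groups then overlapped, at 5.43 to 5.65 and 5.63 to 5.71. A fit that included each array's median also gave 0.13 (limma adjusted p = 0.921). The part of this shared shift in the Sox10 value was not tested.

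Cdh19 encodes a cadherin found in Schwann cells and their precursors. Its values were 4.46, 4.39, 4.34 and 4.62 on control arrays 1 to 4, against 4.46, 4.26, 4.64 and 4.27 on EKO arrays 1 to 4. The groups overlapped throughout, and differed by -0.04 (SE 0.10; limma adjusted p = 0.891; 95% confidence interval -0.28 to 0.19). Only 6.51% to 9.77% of the neg control probe sets read lower than Cdh19 on an array.

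Gfap encodes an intermediate filament protein of astrocytes and of non-myelinating Schwann cells. It read 5.18, 5.12, 5.15 and 5.02 on control arrays 1 to 4 and 5.21, 5.31, 5.18 and 5.13 on EKO arrays. EKO array 2 was again the highest, and the groups overlapped. They differed by 0.09 (SE 0.07; limma adjusted p = 0.666; 95% confidence interval -0.07 to 0.24), where the 4334 genes near its level had a median difference of 0.08.

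Mbp, which encodes myelin basic protein, read 5.74, 5.55, 5.75 and 5.90 on control arrays 1 to 4. EKO arrays read 5.73, 5.75, 5.69 and 5.78, inside the range of the controls. The means were 5.73 ± 0.15 and 5.74 ± 0.04 (SD, n = 4 each), with a 95% confidence interval of -0.18 to 0.19 for the difference (limma adjusted p = 0.998). At this level a change of the true transcript could be hidden by background signal, so these intervals describe the probe set readings and set no limit on Schwann cell RNA.

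S100b encodes a calcium-binding protein abundant in Schwann cells and other glia, and made by adipocytes as well. It read 8.93, 8.62, 9.21 and 8.77 on control arrays 1 to 4 and 8.70, 7.60, 8.29 and 8.73 on EKO arrays 1 to 4. Control arrays were on the high side, but EKO arrays 1 and 4 lay inside the control range, and EKO array 2 was the lowest of all. On that array 52.8% of the neg control probe sets read lower than S100b, against up to 77.6% elsewhere. The mean was 8.88 ± 0.25 in control and 8.33 ± 0.53 in EKO arrays (SD, n = 4 each). The difference of -0.55 (SE 0.25, 95% confidence interval -1.13 to 0.02) corresponds to an EKO level of 0.681 times the control level and did not pass (limma adjusted p = 0.567, exact permutation p = 0.1143). Without EKO array 2 it was -0.31, and in a fit that included each array's median -0.17.

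Ncam1 encodes the neural cell adhesion molecule, carried by axons, non-myelinating Schwann cells, muscle and some lymphocytes. Its values were 11.25, 11.92, 11.13 and 11.32 on control arrays 1 to 4, against 11.13, 10.77, 11.24 and 10.93 on EKO arrays 1 to 4. Control array 2 stood highest, and EKO arrays 2 and 4 lay below each control array while EKO arrays 1 and 3 did not. The mean was 11.41 ± 0.35 in control and 11.02 ± 0.21 in EKO arrays (SD, n = 4 each). Their difference was -0.39 (SE 0.18) with a 95% confidence interval of -0.80 to 0.03, and did not pass (limma adjusted p = 0.574, exact permutation p = 0.1143). Without control array 2 it was -0.21.

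**Figure D2:**
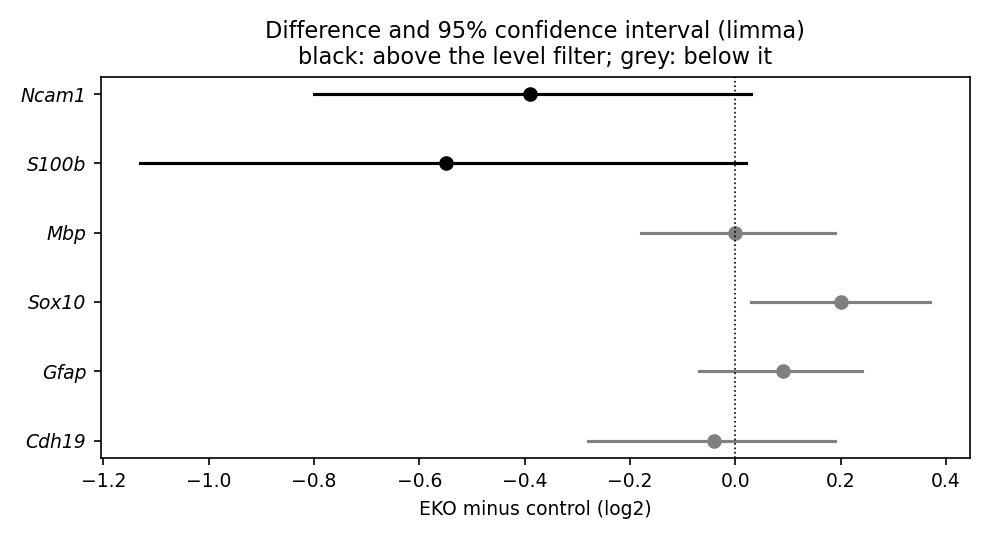
Difference between EKO and control arrays on the log2 scale for the 6 marker genes, with 95% confidence intervals from limma; black genes passed the level filter and grey genes did not. The intervals of S100b (-1.13 to 0.02) and Ncam1 (-0.80 to 0.03) lean to lower EKO values and include 0, and that of Sox10 (0.03 to 0.37) lies above 0 before adjustment.

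Of the 16232 genes tested above the filter, 0% passed at a limma adjusted p under 0.05, the smallest being 0.478. Thus neither S100b nor Ncam1 passed in a comparison in which no gene did. At an unadjusted p under 0.05, 1449 genes or 8.93% were called, and neither marker was among them. Groups failed to overlap in 6.08% of the genes tested, and overlapped in both markers. Without the filter 2714 of 30063 genes or 9.03% had an unadjusted p under 0.05, Sox10 among them (0.0276). Both genes above the filter had a negative difference, as did 55.1% of the genes tested, with a median of -0.02 over all genes tested. A negative difference was more common at their levels. Only 33.2% of genes within 0.25 of the S100b level had a positive one (median -0.05), and 38.3% of those near Ncam1 (median -0.03).

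**Figure D3:**
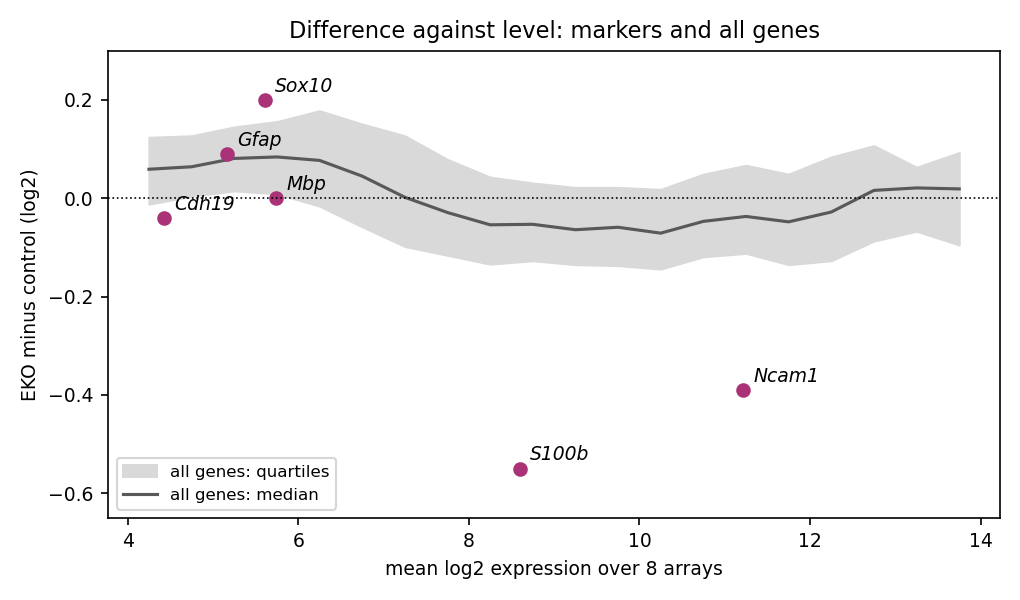
Difference between EKO and control (log2) against mean log2 expression over 8 arrays: the line and band are the median and quartiles of all genes in steps of 0.5, and the points are the 6 markers. The median of all genes is above 0 at low levels (0.084 between 5.5 and 6) and below 0 at middle levels (-0.053 between 8.5 and 9); S100b and Ncam1 lie well below the band, and Sox10 above it.

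S100b and Ncam1 varied between arrays more than most genes of their level. The SD over the 8 arrays was 0.48 for S100b, and 95.4% of the 1378 genes within 0.25 of its level had a smaller one. That of Ncam1 was 0.34, above that of 89.6% of 603 genes. The pair did not vary together (Pearson r = 0.34, permutation p = 0.366, adjusted p = 0.738; Spearman rho = 0.17, permutation p = 0.703), and leaving out the 2 arrays farthest from the S100b median gave r = -0.13. S100b was highest on control array 3, whereas Ncam1 was highest on control array 2.

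The S100b values ran with fat-cell genes. The mean of 10 adipocyte markers that passed the level filter, among them Adipoq and Ucp1, was 9.56, 9.03, 11.48 and 11.08 on control arrays 1 to 4 and 10.80, 8.40, 9.29 and 10.24 on EKO arrays. Both this mean and S100b were lowest on EKO array 2 and highest on control array 3. Over the 8 arrays Pearson r was 0.78 (permutation p = 0.0123, adjusted over 51 relations 0.314) and Spearman rho 0.81 (permutation p = 0.0218, adjusted 0.533), so the relation did not pass the correction. Without those arrays r was 0.40, and the relation therefore rests largely on them. It was 0.68 within control and 0.95 within EKO arrays. With the adipocyte mean as a covariate the S100b difference was -0.38 (SE 0.17, limma adjusted p = 0.606). All 10 adipocyte markers had a negative difference, as did 55.1% of all genes tested. The median of the 10 was -0.61 and none passed the threshold. Their part in the S100b difference was not otherwise tested. Fibroblast markers also ran with S100b (Pearson r = 0.70, permutation p = 0.0434, adjusted 0.388; Spearman rho = 0.64, permutation p = 0.0962). Without control arrays 3 and 4, the farthest from the fibroblast median, r was 0.72. EKO array 2, the lowest for both, was kept there, so this is not the exclusion used for the adipocyte markers.

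Ncam1 showed no such relation to adipocyte markers (Pearson r = -0.06, permutation p = 0.907; Spearman rho = 0.02, permutation p = 0.977) or to skeletal muscle markers (Pearson r = -0.06, permutation p = 0.851; Spearman rho = -0.24, permutation p = 0.582). It was highest where 9 leukocyte markers were lowest. Their mean on control array 2, 6.73, compared with 7.53 to 8.38 elsewhere (Pearson r = -0.81, permutation p = 0.0226, adjusted 0.384; Spearman rho = -0.62, permutation p = 0.115). Without control array 2 and EKO array 2 r was 0.08, so that relation rests on these arrays. With each group's array 2 kept, r was -0.76 within control and -0.96 within EKO arrays. The largest relation of a marker to a cell type list was that of Mbp to the same leukocyte mean (Pearson r = 0.87, permutation p = 0.0105, adjusted 0.314; Spearman rho = 0.71, permutation p = 0.0576; r = 0.91 without control array 2 and EKO array 2). Mbp read 5.55 to 5.90 on these arrays, below the neg control medians throughout. None of the 15 pairs of markers and none of the 36 relations of a marker to a cell type list passed the correction, the smallest adjusted p being 0.388 and 0.314.

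**Figure D4:**
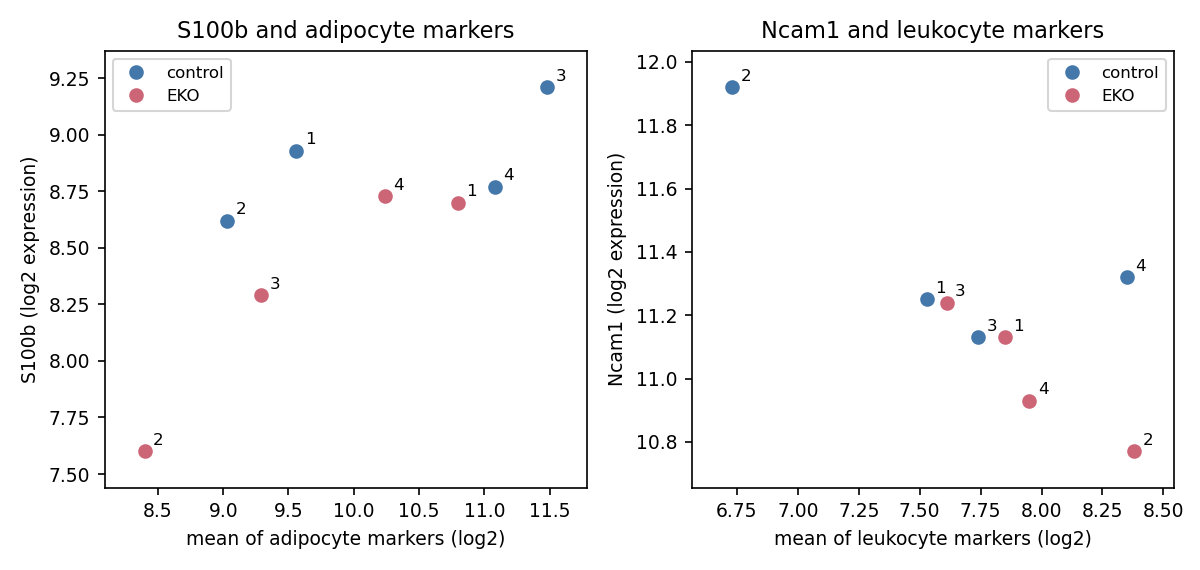
Left, S100b against the mean of 10 adipocyte markers; right, Ncam1 against the mean of 9 leukocyte markers, all log2, with 1 point per array labelled by replicate number (blue control, red EKO). S100b is lowest on EKO array 2, where the adipocyte mean is 8.40, and Ncam1 is highest on control array 2, where the leukocyte mean is 6.73.

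The genes whose 8 values most resembled each marker were named among 5946 tested genes of higher level. For S100b these were the chromatin regulator Asxl1 (r = 0.971), Agfg1 (0.970) and the ubiquitin ligase Ubr4 (0.969), each lowest on EKO array 2 and highest on control array 3. For Ncam1 they were the caveolar coat gene Cav1 (r = 0.973), the splicing regulator Srek1 (0.968) and the potassium channel gene Kcnt2 (0.961), each highest on control array 2 and lowest on EKO array 2. These are the largest of 5946 correlations over 8 arrays and are given as a description. Leaving out the 2 arrays farthest from the marker's median gave r = 0.80, 0.85 and 0.97 for S100b, and 0.76, 0.69 and 0.66 for Ncam1.

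In wider lists of myelin, Schwann cell and axon genes, most members had means below the neg control medians, as did most probe sets of the series. Over the whole series 16232 of 30063 genes passed the level filter. The shares of all genes above the neg control medians, or below their lower quartiles, were not computed. The counts given here are therefore not shown to be particular to nerve genes. Of 13 further myelin and myelinating Schwann cell genes with a probe set, the 3 whose mean exceeded 7.45, the highest neg control median, were Pmp22, Mal and Ugt8a, which are active in many tissues. The myelin-associated glycoprotein gene Mag read 4.99 to 5.33. Of the 4 tested genes 2 had a positive and 2 a negative difference and none passed: Pmp22 differed by -0.21 (SE 0.16), Ugt8a by 0.10 (SE 0.24), Mal by -0.08 (SE 0.36) and Cnp by 0.01 (SE 0.07). Their median was -0.04, against -0.02 over all genes tested.

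Of 8 transcription factors of the lineage 7 had a probe set, and none had a mean above 7.45. The myelination factor Egr2 and Sox8, a relative of Sox10, passed the level filter and differed by -0.07 (SE 0.09) and 0.00 (SE 0.07). Of the other factors 4 read below the lower quartile of the neg control probe sets on each array.

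Among 18 receptors and genes of non-myelinating Schwann cells 17 had a probe set, and Gap43, L1cam and Dhh alone exceeded 7.45. The neuregulin receptor gene Erbb3, needed by Schwann cells to survive along axons, read 5.61 to 5.89. The nerve growth factor receptor gene Ngfr, below the filter, read 5.84 to 6.08 in control and 6.11 to 6.18 in EKO arrays, without overlap (difference 0.19, SE 0.07, limma adjusted p = 0.546). Of all genes with means between 6 and 6.5, 71.5% had a positive difference, with a median of 0.077. Of the 8 genes of this list that were tested, 2 had a positive and 6 a negative difference, with a median of -0.12 and none past the threshold. L1cam, an adhesion molecule of axons and Schwann cells, had the smallest p. It read 11.60, 11.30, 11.41 and 11.45 on control arrays 1 to 4 and 11.10, 10.97, 11.11 and 11.34 on EKO arrays, so EKO array 4 alone entered the control range (difference -0.31, SE 0.10, limma adjusted p = 0.514). The adhesion receptor gene Adgrg6, required for myelination, differed by -0.37 (SE 0.15, limma adjusted p = 0.550), with EKO arrays 3 and 4 at 7.13 and 7.09 and the lowest control array at 7.08. Plekha4 differed by 0.21 and Cadm4 by -0.08. Dhh, the desert hedgehog ligand that Schwann cells and endothelium make, averaged 9.93 ± 0.29 in control and 9.75 ± 0.25 in EKO arrays (SD, n = 4 each). Gap43, a growth cone protein, stood at 10.18 on EKO array 3 and between 9.08 and 9.53 elsewhere.

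**Figure D5:**
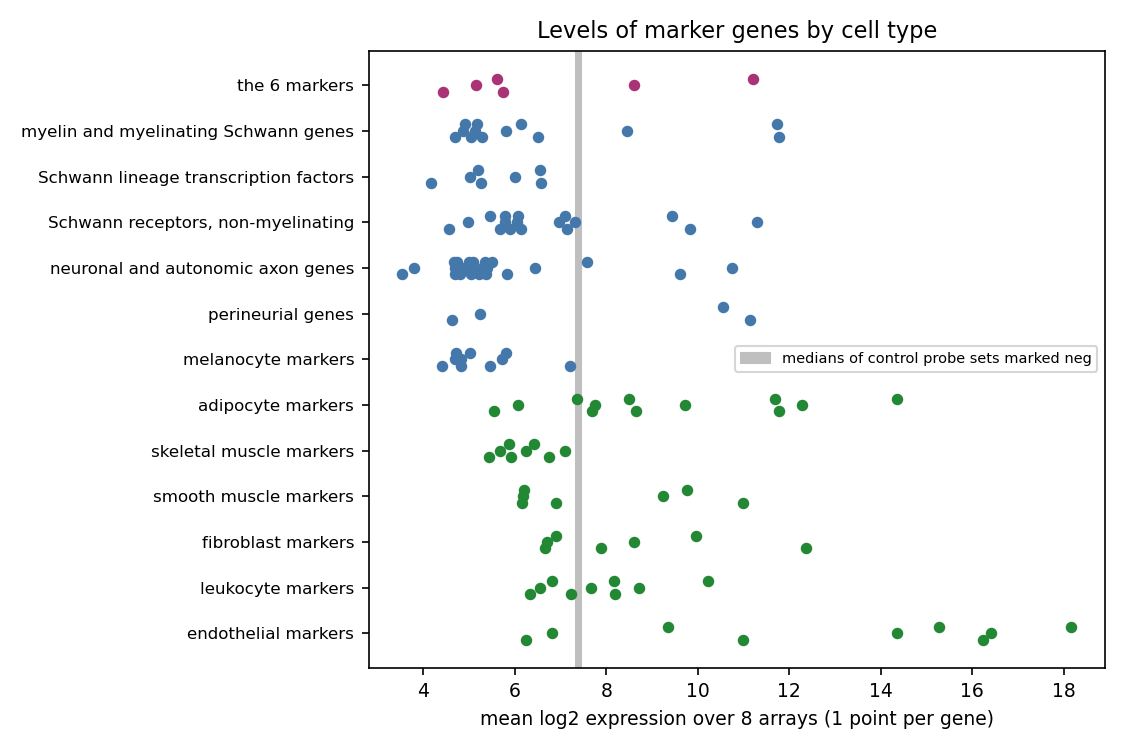
Mean log2 expression over 8 arrays of each gene in lists of nerve and melanocyte genes (blue, with the 6 markers in purple) and of other cell types (green); the grey band is the range of neg control medians (7.34 to 7.45). Most of the blue genes lie left of the band, where most probe sets of the series (not shown) also read. Right of it lie 9 adipocyte, 7 endothelial, 5 leukocyte, 4 fibroblast and 3 smooth muscle markers, and 0 of 8 skeletal muscle markers.

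Transcripts of autonomic neurons mostly read below the neg control medians as well, as did most probe sets of the series. Of 26 genes 23 had a probe set, and 18 of these read below the lower quartile of the neg control probe sets on each array. Stmn2, a tubulin-binding protein of growing axons, was among the 3 exceptions above 7.45, at 10.92 ± 0.37 in control and 10.57 ± 0.39 in EKO arrays (SD, n = 4 each; difference -0.35, SE 0.23, limma adjusted p = 0.637). The others were the ubiquitin hydrolase gene Uchl1 (0.26, SE 0.27) and the vesicular monoamine transporter gene Slc18a2 (0.01, SE 0.13). Npy, a sympathetic cotransmitter gene, differed by -0.12 (SE 0.26). Of the 4 tested genes 2 had a positive and 2 a negative difference, with a median of -0.06 and none past the threshold.

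Most axon genes, including those below the filter, differed slightly in the positive direction. Over all 23 genes, 20 had a positive difference, with a median of 0.13 against 0.03 over all 30063 genes. A positive difference was common at low levels: in steps of 0.5 from 4.5 to 6, between 76.2% and 79.3% of all genes had one, with medians of 0.064 to 0.084. In 9 of the 23 axon genes the groups did not overlap, 8 with higher and 1 with lower EKO values, where 5.91% of all genes did not overlap. That share was 4.2% of genes near the level of Cdh19 and 6.23% of those near Gfap. Th, the rate-limiting enzyme of catecholamine synthesis, was chosen after its values were seen. It read 5.17, 5.13, 5.15 and 5.17 on control and 5.36, 5.60, 5.35 and 5.30 on EKO arrays 1 to 4 (difference 0.25, SE 0.08, limma adjusted p = 0.546). These readings stayed below the lower quartile of the neg control probe sets, at a level where most genes read higher in EKO arrays. After quantile normalization the count was 3, with a median of 0.07, where 4.66% of all genes did not overlap and their median was 0. The part of the shared shift in these counts was not tested.

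Few markers of neighbouring cells with a shared neural crest origin or sheath position had means above 7.45. None of 10 melanocyte markers, a lineage that also uses SOX10, had a mean above 7.45, and 8 read below the lower quartile of the neg controls on each array. Mitf was the 1 tested (0.02, SE 0.07). Of 4 perineurial genes the glucose transporter gene Slc2a1 (0.01, SE 0.11) and the integrin gene Itgb4 (-0.12, SE 0.08) exceeded 7.45, and both are active in endothelium. Among 9 ligands by which a vessel wall guides or supports axons and Schwann cells, 7 had a probe set. Nrg1, the neuregulin gene, was the 1 tested (-0.10, SE 0.14, limma adjusted p = 0.824). None of these genes passed the threshold.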

How the data were processed

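Per the labels, the authors deposited SST-RMA values from Expression Console, on the log2 scale. SST-RMA is meant to make arrays alike in their quantiles, so differences in signal between whole arrays were reduced before deposit. The deposited arrays were not fully alike. Their medians ranged from 6.06 to 6.24, and a further quantile normalization moved the Sox10 difference from 0.20 to 0.13. Versions and genome build are not given in the sources used here. The 8 columns were grouped by sample title. Of 72688 probe sets 6732 were controls, and the platform annotation gave 1 symbol to 30604, several to 2146 and did not list 33206, which are unnamed here. Symbols were updated through the RefSeq table of GRCm38.p6 (1135 changed). The probe set with the highest mean stood for each symbol. The level filter kept genes with a mean over 6.14, which is the median over all probe sets. These were tested in R 4.3.3 with limma 3.58.1 (eBayes, Benjamini-Hochberg over all genes, threshold 0.05). Values for markers below the filter come from the same fit over all 30063 genes. Relations across arrays used exact permutation of pairings, adjusted over 51. The test was checked on simulated data with independent noise per gene and shifts larger than the marker differences. That check does not bear on differences as small as those of the markers, or on shifts shared by many genes. Alternatives covered level filter, probe set, normalization, variance model, array weights, replicate block, covariates and each array left out.

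The markers, the wider lists and the rules were chosen with earlier results of these data known. The named genes are the 7 markers, up to 4 tested genes of each nerve list with the smallest p, and the 3 genes most correlated with each marker above the filter, among tested genes at or above the median level that have no predicted or clone symbol. Other genes are named for their known role in nerve or vessel wall, chosen after their values were seen. The labels name single aortas and no array batch or date.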

Additional observations from a re-analysis of the deposited data

Results flagged for a closer look

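A gap test within each group of 4 arrays was applied to 116 groups, where chance flags about 1 in 20, and it marked 8. For Sox10, EKO array 2 read 5.80 and the other EKO arrays 5.67 to 5.69. For Nrg1, EKO array 3 read 6.43 against 5.93 to 6.01 on the others. For the skeletal muscle genes control array 4 stood apart: Acta1 read 8.84 (others 6.38 to 6.74), Ckm 7.15 (6.09 to 6.13) and Tnnt3 9.29 (6.01 to 6.10), and the mean of the 4 tested muscle markers was 7.93 (6.16 to 6.22). Acta1 also read 8.35 on EKO array 1, against 6.58 to 6.82 on the other EKO arrays. Ncam1, which muscle also makes, read 11.32 and 11.13 on these arrays, within the range of the others. For Cdh5, control array 2 was lowest at 16.23, against 16.40 to 16.42.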

How the results depend on the processing

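Under 19 alternatives, 0 genes passed the limma threshold, and at an unadjusted p under 0.05 between 808 and 2714 genes were called. None of 110 recomputed differences of the 6 markers passed. S100b, Ncam1, Sox10 and Gfap kept their direction in each of these. With single arrays left out S100b ranged from -0.69 to -0.31, Ncam1 from -0.48 to -0.21 and Sox10 from 0.17 to 0.25. The direction turned for the 2 markers nearest to 0. Mbp was -0.07 with quantile normalization and -0.01 with array weights, and -0.06 to 0.06 with single arrays left out. Cdh19 was 0.03 with the array median as a covariate and -0.12 to 0.01 with single arrays left out. The cause was not tested. The axon gene count of 9 was 3 with quantile normalization, an alternative added after seeing the data, where the share of all genes without overlap went from 5.91% to 4.66%. Leaving out an array cannot lower such a count and is no check of it. The replicate number as a block gave S100b -0.55 (limma adjusted p = 0.632), Ncam1 -0.39 (0.677), Sox10 0.20 (0.623) and 0 genes past the threshold. Arrays of the same number did not deviate together over the genes tested (r of -0.16, 0.21, -0.24 and 0.13). These values gave no sign that the numbers pair the samples. They cannot exclude a pairing whose effect is small beside other differences between arrays. Low signal, below the neg control medians, limits what Sox10, Cdh19, Gfap and Mbp can show.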
